A study of Mus musculus with 24 samples.

Results

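The genes described here encode the nuclear parts of the mitochondrial respiratory chain, as measured in the developing mouse cochlea. They were taken by symbol: every gene measured under a single symbol that begins with Nduf or Uqcr, that begins with Cox4, Cox5, Cox6, Cox7 or Cox8, or that is Sdha, Sdhb, Sdhc, Sdhd, Cycs or Cyc1. This gave 75 genes of the 18194 that had a probe set of their own. Each gene was read from the probe set with the highest mean log2 signal over all arrays. The rule uses symbols and mean signal, and was set with earlier results of these data known. The rule also takes in 8 complex I assembly factors (Ndufaf1 to Ndufaf8), which help to build the enzyme but are not part of it. Total RNA of pooled cochleae was hybridised to 24 Affymetrix mouse genome arrays, 3 for each genotype at postnatal day 3, 7, 13 and 60 (P3, P7, P13 and P60). The mice were wild type or α9−/−, null for Chrna9, which encodes the α9 subunit of the acetylcholine receptor of hair cells. Both genotypes came from a 129S6 × CBA/CaJ background backcrossed to CBA/CaJ for at least 7 generations, the null allele was constitutive, and each array held a pool of 3 to 5 mice per the series description. The study's methods count pools in cochleae instead, with fewer at P13 and P60 than at P3 and P7, so the older pools may have held fewer mice. A pool is therefore the replicate, and the labels do not say whether pools of one group came from different litters.

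The respiratory chain passes electrons from NADH and succinate to oxygen and pumps protons across the inner mitochondrial membrane. Complex I (NADH dehydrogenase, the Nduf genes) and complex II (succinate dehydrogenase, Sdha to Sdhd) feed electrons to complex III (the Uqcr genes and Cyc1). Cytochrome c (Cycs) carries them on to complex IV (cytochrome c oxidase, the Cox genes), and the proton gradient drives ATP synthase. Some complex IV subunits exist as tissue isoforms: Cox6a2, Cox7a1 and Cox8b are those of heart and skeletal muscle, with Cox7a1 and Cox8b also in brown fat, and Cox6a1, Cox7a2 and Cox8a are their counterparts in most other tissues. In the cochlea the stria vascularis, which secretes potassium into the endolymph, is known for its dense mitochondria.

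Upstream sequences of the isoform genes Cox6a1, Cox7a1 and Cox8b are shown here because the largest differences between ages were found among complex IV isoforms. That of Cycs is shown because it is a classical target of nuclear respiratory factor 1 (NRF-1), a regulator of respiratory chain genes. All are the 250 bases before the annotated start in RefSeq, on GRCm38.p6, read 5′ to 3′ on the strand of the gene. Capitals mark matches to CATGCGC, the core of the NRF-1 motif, and to CCGGAAG, a motif of ETS factors such as GABP, on either strand. Cox6a1 (chr5:115348959-115349208, minus strand) held 2 NRF-1 matches that overlap each other on opposite strands, and 1 ETS match. Cycs (chr6:50566570-50566819, minus strand) held 1 NRF-1 match. In Cox7a1 (chr7:30183921-30184170, plus strand) and Cox8b (chr7:140900447-140900696, minus strand) neither motif was found. Nor did Cox7a2 and Cox8a, counterparts in most tissues that are not printed, hold a whole match within these 250 bases. An ETS match of Cox8a begins at -5 and runs past the start. For Cox6a2 there was no entry.
Cox6a1: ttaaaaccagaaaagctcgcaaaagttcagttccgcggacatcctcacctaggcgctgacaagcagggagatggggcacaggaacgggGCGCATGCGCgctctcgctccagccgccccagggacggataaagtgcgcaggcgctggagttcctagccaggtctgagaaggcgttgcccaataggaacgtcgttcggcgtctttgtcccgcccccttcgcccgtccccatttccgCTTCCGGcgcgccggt
Cycs: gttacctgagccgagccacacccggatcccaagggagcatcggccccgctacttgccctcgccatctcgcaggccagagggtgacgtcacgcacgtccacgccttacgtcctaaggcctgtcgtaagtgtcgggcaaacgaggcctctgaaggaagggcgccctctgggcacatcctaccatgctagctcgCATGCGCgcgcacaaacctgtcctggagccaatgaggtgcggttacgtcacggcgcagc
Cox7a1: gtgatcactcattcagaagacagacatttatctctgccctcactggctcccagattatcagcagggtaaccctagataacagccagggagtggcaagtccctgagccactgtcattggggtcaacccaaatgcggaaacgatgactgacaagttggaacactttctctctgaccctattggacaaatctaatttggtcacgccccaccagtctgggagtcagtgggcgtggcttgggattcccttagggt
Cox8b: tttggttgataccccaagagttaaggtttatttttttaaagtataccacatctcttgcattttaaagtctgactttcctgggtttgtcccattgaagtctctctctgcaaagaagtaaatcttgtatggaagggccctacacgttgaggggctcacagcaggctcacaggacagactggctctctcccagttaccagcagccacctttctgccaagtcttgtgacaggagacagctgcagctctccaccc

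Of the 75 genes, 60 had an entry in this RefSeq table, which holds 27025 genes in all. Over windows of 300 bases that also take in the first 50 transcribed bases, CATGCGC stood in 12 of the 60 respiratory chain genes (20%) and in 1192 of all genes (4.41%). The 12 lie in each complex: Ndufa6, Ndufa8, Ndufb6, Ndufb8, Ndufaf4 and Ndufaf5 for complex I, Sdhb for complex II, Uqcr11 and Uqcrc1 for complex III, Cycs, and Cox5b and Cox6a1 for complex IV. CCGGAAG stood in 13 of 60 (21.7%), against 9.93% of all genes. Shares of the other motifs were nearer to those of all genes. AAGGTCA, bound by oestrogen-related receptors, stood in 6.67% against 5.38%, the MEF2 motif of muscle factors, CTA and TAG with any 4 bases between them, in 3.33% against 4.23%, and ACGTG, the core bound by hypoxia-inducible factors, in 23.3% against 21.8%. All were searched on both strands, and a match describes the sequence only.

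The cochlear label was checked against Coch, Otos and Tbx18, markers of cochlear fibrocytes, whose mean log2 signal was 10.11 to 10.79 on the arrays of wild type mice at P3 and 12.75 to 13.03 at P60. The hair cell markers, 7 of 10 measured, were dim, with array means of 5.87 to 6.56 against a median of 6.64 over all probe sets. Chrna9 itself was below that median in all 8 groups on each of its 3 probe sets, with group means of 3.66 to 5.96. None of the 3 was called between genotypes at any age. The nearest were 1 probe set at P13, 4.46 ± 0.21 in wild type and 3.66 ± 0.28 in α9−/− (SD, n = 3, adjusted p = 0.071, limma), and another at P60, 5.96 ± 0.39 and 5.38 ± 0.04 (SD, n = 3, adjusted p = 0.88, limma). Whether any of them lies in the deleted part of the gene is not known here. Markers of other tissues differed between arrays. The 14 skeletal muscle markers had array means of 7.40 to 12.43 and the 7 measured cerebellum markers of 6.29 to 11.41, both highest at P60. The 8 neutrophil lineage markers had array means of 7.06 to 8.47 at P3 and 12.53 to 13.03 at P13 in wild type. The 4 measured erythroid markers were at 6.26 to 7.72 at P3 and 9.59 to 10.27 at P13 in wild type. The 5 measured markers of dividing cells were at 11.25 to 11.41 at P13 and 8.76 to 9.49 at P60 in wild type. The part of these cells in the respiratory chain values was not tested. On 5 arrays the control probe set for the 5′ end of Gapdh lay more than 4 log2 units below the 3′ one. They were replicate 1 of P60 wild type, replicates 1 and 2 of P13 wild type, and 1 array of each genotype at P3, wild type replicate 1 and α9−/− replicate 2. These are called the arrays of low 5′ signal below. In bulk tissue, fewer cells of a type and less RNA per cell cannot be told apart.

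Signals of most respiratory chain genes were high. Their mean log2 signals over all arrays ran from 3.42 to 13.69 with a median of 11.29, and 72 of 75 were above the median of all probe sets. The 3 below it were Ndufb4, Cox4i2 and Cox7b2. Of all 18194 genes, each also read from its brightest probe set, 11849 were above that median. Over the 8 groups, the mean of a gene ranged by less than 0.5 log2 for 31 genes, by 0.5 to 1 for 34, and by 1 or more for 10, with a median range of 0.56. The median SD over 3 arrays was 0.14 to 0.25 in the 8 groups. These ranges and SDs were not set against those of all genes.

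From P3 to P60, in a comparison added after the values had been seen, 7 of the 75 genes rose and 1 fell in wild type cochleae at an adjusted p under 0.05. Over all 18194 genes, 11.4% were called higher and 8.07% lower in that comparison. In α9−/− cochleae 5 rose and none fell, where 8.17% of all genes were called higher and 11.1% lower. The median difference of the respiratory chain genes was 0.19 in both genotypes, against -0.004 over all genes in wild type and -0.11 in α9−/−. It depended on single arrays: in wild type it was 0.31 without P3 replicate 1 and 0.11 without P3 replicate 2, and in α9−/− it was 0.11 without P3 replicate 3 and 0.12 without P60 replicate 3, and 0.29 without P3 replicate 2 or P60 replicate 1. Of the 75 genes, 40 were above 0 in both genotypes and 15 were below 0 in both. All adjusted p-values are those of limma with the Benjamini-Hochberg adjustment over all 45101 probe sets.

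**Figure D1:**
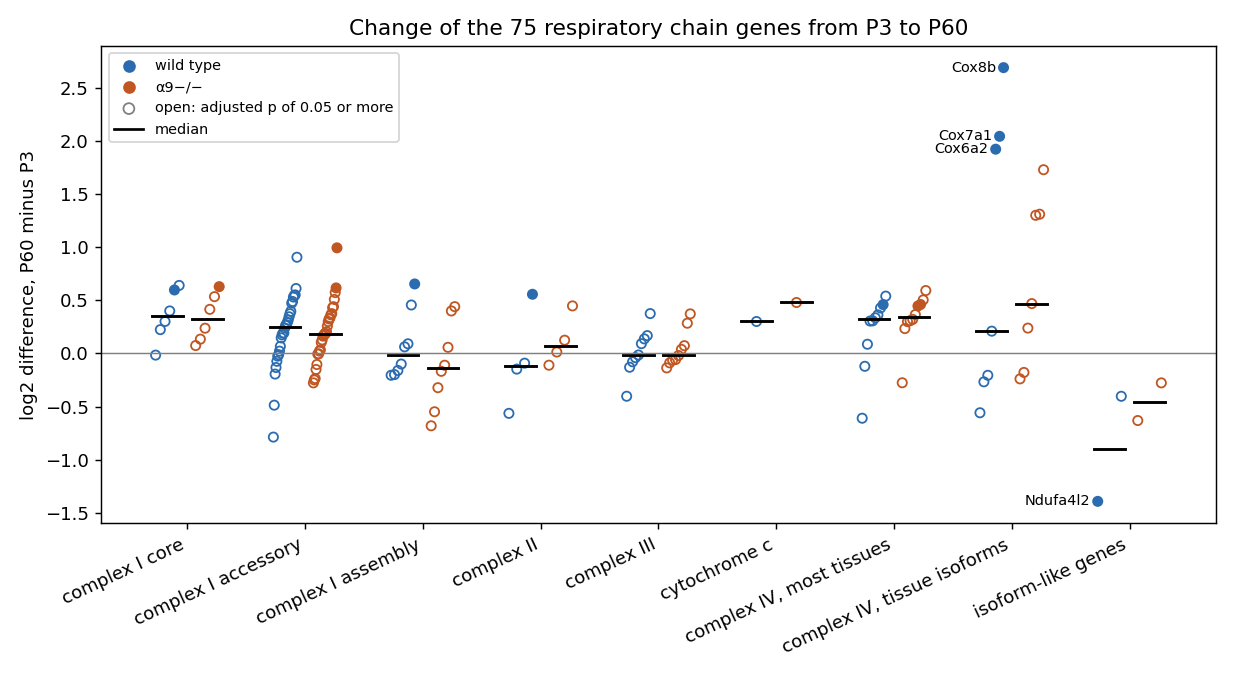
Log2 difference from P3 to P60 of each of the 75 respiratory chain genes, by complex, in wild type (blue) and α9−/− (orange) cochleae. Filled points passed an adjusted p of 0.05, black bars are medians, and Cox8b, Cox7a1 and Cox6a2 stand apart at the top with Ndufa4l2 at the bottom.

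The complex IV subunits of most tissues and the core of complex I had median differences of similar size. The 10 complex IV subunits of most tissues had a median difference of 0.32 in wild type and 0.34 in α9−/−, and the 6 measured core subunits of complex I had 0.35 and 0.33. The 28 accessory subunits of complex I followed with 0.25 and 0.19. Complex III, with 9 genes, had medians of -0.01 and -0.02, and the 8 assembly factors of complex I had -0.02 and -0.14. For complex II, with 4 genes, the medians were -0.12 and 0.07, and for the 7 tissue isoforms of complex IV they were 0.21 and 0.47. These medians describe the groups of genes, and the differences between groups were not tested.

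Among the subunits found in most tissues, Cox7a2 was the one called in both genotypes. In wild type its log2 signals were 13.30, 12.97 and 12.92 at P3 and 13.64, 13.44 and 13.49 at P60. The α9−/− arrays read 13.01, 13.17 and 12.94 at P3 and 13.44, 13.55 and 13.47 at P60. Within each genotype every P60 array was above every P3 array. The differences were 0.46 in wild type (SE 0.14, adjusted p = 0.034, limma) and 0.45 in α9−/− (SE 0.14, adjusted p = 0.039, limma), each close to 1.37-fold. Cox6a1 rose by 0.46 in α9−/− (SE 0.14, adjusted p = 0.029, limma), from 13.71, 13.45 and 13.45 to 13.94, 14.07 and 13.97. In wild type its difference was 0.31 and did not pass.

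In complex I, Ndufs1, the largest iron-sulfur subunit of the electron input arm, rose in wild type. Its signals were 10.47, 10.87 and 10.78 at P3 and 11.62, 11.33 and 10.96 at P60, a difference of 0.60 (SE 0.18, adjusted p = 0.031, limma). Ndufv1, which binds the flavin that accepts electrons from NADH, rose in α9−/− from 11.39, 11.30 and 10.96 to 11.73, 11.94 and 11.87, by 0.63 (SE 0.20, adjusted p = 0.040, limma). Both are core subunits, and in both the P3 and P60 arrays did not overlap. Ndufa13, an accessory subunit also known as GRIM-19, rose in α9−/− by 0.62 (SE 0.19, adjusted p = 0.034, limma). The assembly factor Ndufaf3 rose in wild type by 0.65 (SE 0.19, adjusted p = 0.026, limma). Ndufb4 was called in α9−/− at 0.99 (SE 0.30, adjusted p = 0.032, limma), but on a probe set that is below the median of all probe sets, with signals of 4.25, 4.25 and 4.55 at P3 and 5.61, 5.69 and 4.73 at P60.

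Sdha, the flavoprotein of complex II that oxidises succinate, was the only one of the 4 complex II genes called at any age step. It read 11.50, 11.67 and 11.68 at P3 in wild type and 12.44, 12.24 and 11.85 at P60. The rise was 0.56 (SE 0.17, adjusted p = 0.037, limma), and P60 lay above P3 on every array. In α9−/− its signals were 11.52, 11.84 and 11.73 at P3 and 12.07, 12.19 and 12.17 at P60, a difference of 0.45 that did not pass. Sdhb, Sdhc and Sdhd differed by -0.15, -0.56 and -0.09 in wild type, and none passed. Without P60 wild type replicate 1, an array of low 5′ signal, Sdhb turned to 0.18 and Cyc1, given next, to 0.17. Cycs differed by 0.30 and 0.48 and Cyc1 by -0.13 and 0.37 in wild type and α9−/−, all short of the threshold.

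Without the 5 arrays of low 5′ signal the P3 to P60 counts became 8 higher and 0 lower in wild type, and 11 higher and 1 lower in α9−/−. Of all genes 11.2% were then called higher and 8.38% lower in wild type, and 9.8% and 10.5% in α9−/−. The genes called then included Cox5a in both genotypes (0.73 in wild type, adjusted p = 0.034; 0.70 in α9−/−, adjusted p = 0.026, limma), Ndufs7 in both (1.02 and 0.76), and Cox4i1 in α9−/− (0.57, adjusted p = 0.0098, limma). Sdha, Ndufs1 and Ndufa4l2 in wild type, and Cox6a1 and Ndufa13 in α9−/−, no longer passed. The median difference over the 75 genes was then 0.32 and 0.29. When single arrays were left out in turn, the P3 to P60 calls of Cox8b and Cox7a1 in wild type held in all 6 cases, and each of the other calls was lost in at least 3 of 6.

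The largest rises were in the muscle and brown fat isoforms of complex IV. In wild type mice Cox8b (chr7:140898942-140900446) read 9.20, 6.99 and 8.27 at P3, and 7.74, 7.79 and 7.85 at P7. At P13 the signals were 10.20, 9.12 and 9.42 and at P60 10.49, 10.74 and 11.28. It was level over the 3 arrays of P7, spread at P3, and at P60 above every younger array. From P3 to P60 it rose by 2.69 (SE 0.59, adjusted p = 0.0035, limma), or 6.45-fold, and from P7 to P13 by 1.79 (SE 0.59, adjusted p = 0.048, limma). In α9−/− mice it read 8.03, 10.01 and 9.12 at P3, and 7.29, 8.40 and 7.62 at P7. The arrays of P13 read 8.82, 9.45 and 9.62 and those of P60 9.76, 10.35 and 12.24. The P3 and P60 arrays of α9−/− overlapped, and the difference of 1.73 did not pass (SE 0.59, adjusted p = 0.055, limma).

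Cox7a1 (chr7:30184171-30186030) followed the same order. Its wild type signals were 9.02, 6.95 and 7.65 at P3, and 7.51, 7.45 and 7.35 at P7. At P13 the signals were 9.30, 8.28 and 8.58 and at P60 9.77, 9.74 and 10.24. The P3 to P60 rise was 2.04 (SE 0.46, adjusted p = 0.0046, limma), or 4.12-fold. In α9−/− it went from 7.70, 8.96 and 8.30 at P3 to 8.80, 9.35 and 10.74 at P60, and the difference of 1.31 did not pass (SE 0.46, adjusted p = 0.065, limma).

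Cox6a2 (chr7:128205435-128206366) read 9.07, 7.20 and 6.49 at P3 in wild type, and 7.31, 7.75 and 7.41 at P7. The arrays of P13 read 8.42, 7.39 and 8.63 and those of P60 9.05, 8.96 and 10.52. In α9−/− it read 7.49, 7.79 and 8.92 at P3, and 7.08, 7.87 and 7.37 at P7. At P13 the signals were 7.09, 6.83 and 6.83 and at P60 8.60, 9.31 and 10.18. Within each genotype all arrays of P60 were above all of P13. The P13 to P60 rise was 2.45 in α9−/− (SE 0.56, adjusted p = 0.0091, limma), or 5.47-fold, and held when any single array was left out. In wild type the same step was 1.36 and did not pass (SE 0.56, adjusted p = 0.12, limma), and the difference between genotypes in this step was 1.09 (SE 0.79, unadjusted p = 0.19, limma). Its P3 to P60 rise in wild type was 1.92 (SE 0.56, adjusted p = 0.025, limma).

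**Figure D2:**
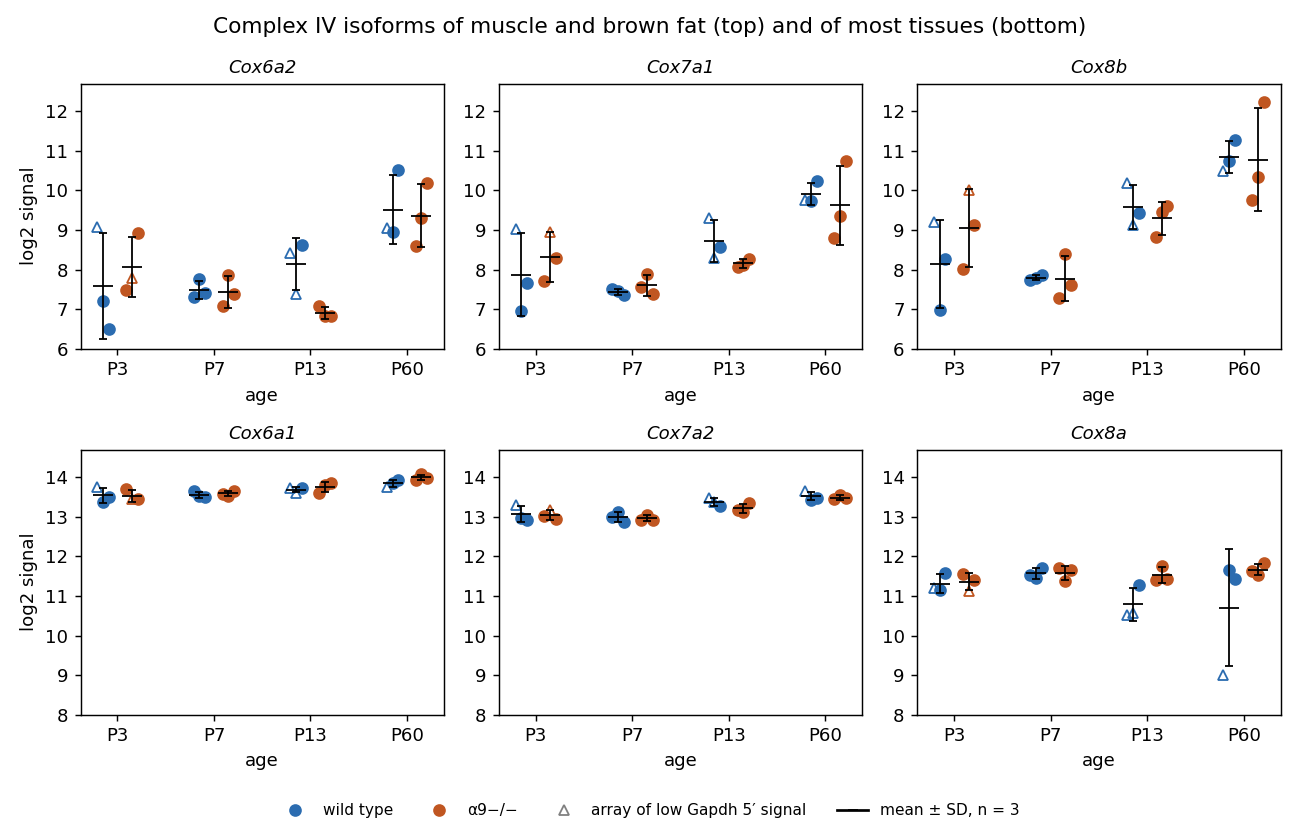
Log2 signal on each array of the muscle isoforms Cox6a2, Cox7a1 and Cox8b (top) and of Cox6a1, Cox7a2 and Cox8a of most tissues (bottom), by age and genotype, with mean ± SD of 3 arrays and open triangles for arrays of low 5′ signal. The top row spans several log2 units between arrays and ages, Cox6a1 and Cox7a2 stay within 1, and Cox8a has one low array of 9.0 at P60. The axes of both rows have the same height.

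Markers of skeletal muscle differed between the same arrays, in part in the same order. On the P3 wild type array with muscle markers at 9.97, the mean of Cox6a2, Cox7a1 and Cox8b was 9.10, while the other two P3 wild type arrays had muscle means of 8.12 and 7.48 and isoform means of 7.05 and 7.47. At P60 the muscle means were 9.41, 10.42 and 12.43 in wild type and 10.27, 10.60 and 12.15 in α9−/−, and the isoform means were 9.77, 9.81 and 10.68, and 9.05, 9.67 and 11.05. At P60 the array with the most muscle signal in each genotype was the one with the most isoform signal. Other arrays were not in this order. P3 α9−/− replicate 2 had a muscle mean of 8.14 and an isoform mean of 8.92. In wild type at P13 the isoform mean was 9.31 at a muscle mean of 9.40 but 8.88 at 10.05. From P7 to P13 in α9−/− the muscle means went from 7.59, 7.95 and 8.03 to 7.53, 7.58 and 7.42, lower on every array, while the isoform means went from 7.30, 8.05 and 7.45 to 7.99, 8.13 and 8.24. Cox6a2 alone was in the order of the muscle means at P3 in both genotypes, at P13 in wild type and at P60 in α9−/−. In the other groups it was not, and from P7 to P13 in α9−/− it differed by -0.52. All 14 muscle markers were measured, and from P13 to P60 11 of them rose in α9−/− and 2 in wild type, with median differences of 3.63 and 1.83. Of all genes 5.07% and 5.77% were called higher in that step. The fat markers, 4 of 5 measured, had array means of 5.88 to 11.35, highest on P60 α9−/− replicate 3, which also had the highest Cox8b. Their means were 7.15, 7.90 and 8.33 in P3 α9−/− and 8.06, 7.19 and 6.97 in P13 wild type. The part of these tissues in the rise between ages was not tested.

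**Figure D3:**
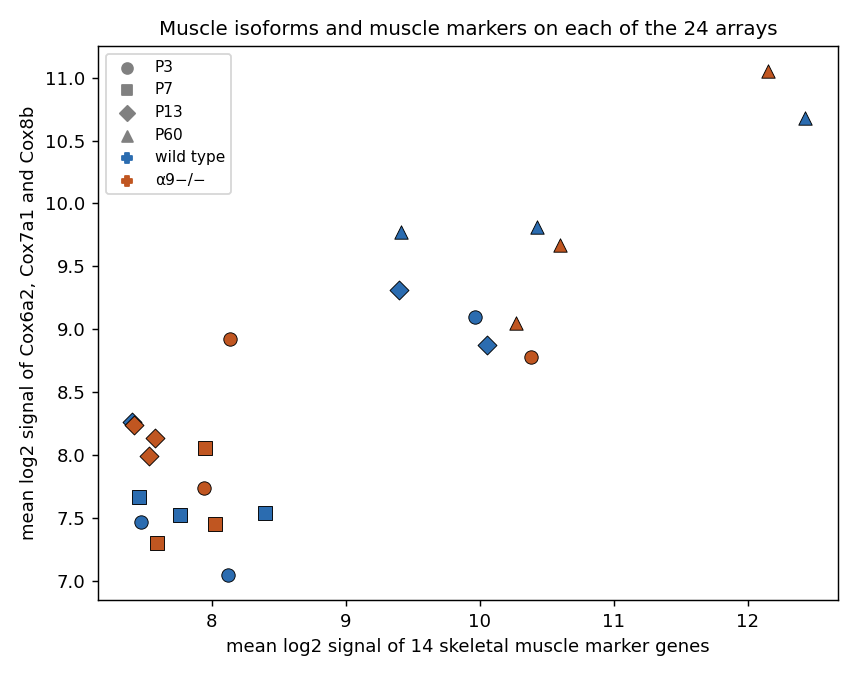
Mean log2 signal of Cox6a2, Cox7a1 and Cox8b against the mean of 14 skeletal muscle markers, one point per array, with the marker shape giving the age and the colour the genotype. The P60 arrays lie to the upper right, and at P3 and P13 the arrays with muscle means above 9 have isoform means of 8.78 to 9.31.

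Ndufa4l2 (chr10:127509274-127517154), a relative of Ndufa4 that is induced by hypoxia in other cells, was the gene that fell most. In wild type it read 7.27, 7.27 and 7.70 at P3, and 8.23, 7.73 and 8.17 at P7. The arrays of P13 read 6.03, 5.61 and 6.39 and those of P60 4.67, 6.59 and 6.80. Every wild type array of P13 and P60 was below every one of P3 and P7. From P7 to P13 it fell by 2.03 on the log2 scale (SE 0.45, adjusted p = 0.0059, limma), or 4.09-fold, and from P3 to P60 by 1.39 (SE 0.45, adjusted p = 0.046, limma). The α9−/− arrays read 7.58, 6.37 and 7.73 at P3, and 7.75, 8.05 and 8.17 at P7. At P13 the signals were 7.22, 7.10 and 6.70 and at P60 6.22, 6.18 and 7.39. Their P7 to P13 difference of -0.99 did not pass (SE 0.45, adjusted p = 0.33, limma), though the arrays did not overlap, and the genotype difference of this step was 1.05 (SE 0.64, unadjusted p = 0.12, limma).

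Ndufa4l2 was lower on the arrays of low 5′ signal than on the others of its group in each of the 5 cases, by 0.94 on average. Without those arrays the wild type P7 to P13 difference was -1.65, a value that rests on P13 wild type replicate 3 alone. The P3 to P60 call in wild type was lost without P60 wild type replicate 1, when the difference was -0.72, and also without any one of the P3 arrays.

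From P7 to P13 in wild type 2 of 75 genes rose and 2 fell, where 11.8% of all genes were called higher and 5.4% lower. The other two were Ndufa4 and Ndufa3. Ndufa4, first described in complex I and now placed in complex IV, rose from 11.75, 11.51 and 12.02 to 12.24, 12.28 and 12.31, by 0.51 (SE 0.16, adjusted p = 0.037, limma). Every α9−/− array of P13 was also above those of P7, with signals that went from 11.81, 11.65 and 11.71 to 12.00, 12.20 and 12.05, but that difference of 0.36 did not pass (SE 0.16, adjusted p = 0.30, limma). Ndufa3, an accessory subunit of complex I, fell from 12.13, 12.56 and 12.28 to 10.66, 11.26 and 11.69, by 1.12 (SE 0.33, adjusted p = 0.029, limma). It was lower on all 5 arrays of low 5′ signal, by 0.85 on average, and P13 wild type holds 2 of those arrays. Without them the step rests on P13 wild type replicate 3 alone, so its calls are not given. The Ndufa4l2 call held without any single array, while those of Ndufa3, Ndufa4 and Cox8b were lost in 4, 5 and 6 of 6 cases. In α9−/− 0 of 75 genes passed in this step by limma, with 3.11% of all genes called higher and 1.36% lower, and 4 of the 75 were at an unadjusted p under 0.05 (18.5% of all genes).

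**Figure D4:**
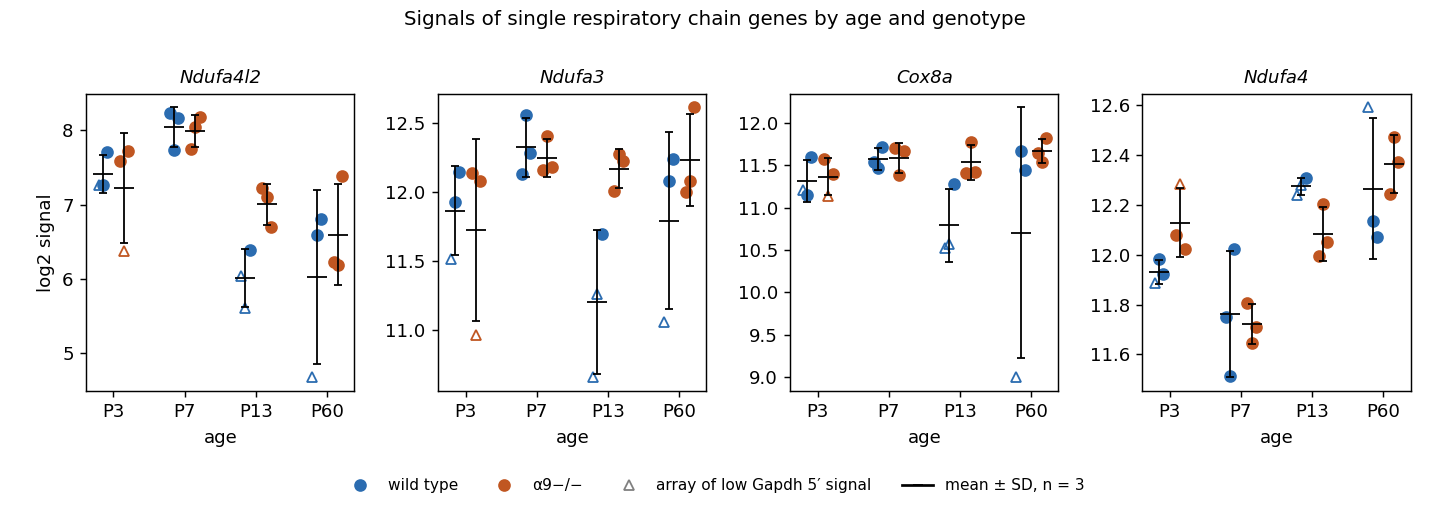
Log2 signal of Ndufa4l2, Ndufa3, Cox8a and Ndufa4 on each array by age and genotype, with mean ± SD of 3 arrays and open triangles for arrays of low 5′ signal, each panel on its own axis. In wild type Ndufa4l2 falls between P7 and P13, and for Ndufa3 and Cox8a the lowest points at P13 and P60 are arrays of low 5′ signal.

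From P13 to P60 most respiratory chain genes were at a higher mean, by small amounts. The median difference was 0.16 in wild type and 0.23 in α9−/−, against -0.08 and -0.04 over all genes, and 56 of the 75 were above 0 in both genotypes. Without P60 α9−/− replicate 3, the array with the highest muscle isoform and fat marker signals, the α9−/− median was 0.12. Markers of other cells differed in this step too. The 6 stria vascularis markers, all measured, had array means of 8.88 to 9.13 at P13 and 9.54 to 10.31 at P60 in wild type, where 4 of 6 rose, and of 9.20 to 9.48 and 9.31 to 9.66 in α9−/−, where 0 were called by limma. The 6 spiral ganglion neuron markers, all measured, had array means of 9.98 to 10.66 and 10.71 to 11.76 in wild type and of 10.13 to 10.77 and 11.24 to 12.20 in α9−/−, and 1 of 6 rose in each. The cerebellum markers had array means of 6.41 to 9.08 at P13 and 7.79 to 10.50 at P60 in wild type. In α9−/− they had means of 6.29 to 7.56 and 9.54 to 11.41. Whether the neuron markers, which include Tubb3 and Snap25, rose in cochlear or in other neurons was not tested. Nor was the part of any of these markers in the respiratory chain values tested. All arrays of P60 lay above all of P13 for 17 genes in wild type, where 11.7% of all genes did so, and for 25 in α9−/−, where 15.2% did. The reverse held for 1 gene in each genotype, Cox6b2, the testis isoform of a complex IV subunit, against 17.3% and 18.9% of all genes. In both genotypes 13 genes had P60 arrays all higher: Ndufa5, Ndufa12, Ndufa13, Ndufab1, Ndufaf8, Ndufb6, Ndufb10, Ndufs5, Ndufs7, Cox6a1, Cox6a2, Cox7a1 and Cox8b. Few of these steps passed the test. In α9−/− 2 genes were called higher and none lower, with 5.07% of all genes called higher and 5.27% lower, and in wild type 0 were called by limma, with 5.77% and 9.42%, and 13 of 75 at an unadjusted p under 0.05 (31.1% of all genes). Besides Cox6a2 the gene called was Ndufs5, an accessory subunit at the arm of complex I that faces the intermembrane space. Its α9−/− signals went from 10.62, 10.73 and 10.92 to 11.31, 11.50 and 11.69, a rise of 0.74 (SE 0.20, adjusted p = 0.026, limma), and in wild type from 11.12, 11.37 and 11.10 to 11.74, 11.61 and 11.37.

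The scale mattered here. On the deposited values, whose overall level was highest at P13, the same step gave medians of -0.25 and -0.17 for the respiratory chain genes and -0.36 and -0.34 for all probe sets, so the sign turned. Of the 13 genes listed above, Cox6a1, Ndufa12, Ndufb6 and Ndufs5 were below 0 on that scale in wild type, and Cox6a1, Ndufa12, Ndufa13 and Ndufaf8 in α9−/−. On that scale 7 of 75 were called lower in wild type and 0 higher, where 28% of all genes were called lower and 2.83% higher. Between P3 and P7 the medians were -0.01 and -0.06, and 0 of 75 genes were called in either genotype by limma, with 0 at an unadjusted p under 0.05 in wild type (13.4% of all genes) and 5 in α9−/− (14.2%). Over all genes, 0.841% were called higher and 0.66% lower in wild type, and 0.654% and 1.12% in α9−/−.

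Between genotypes 0 of 75 genes were called at P3, P7, P13 or P60 by limma, and at an unadjusted p under 0.05 there were 0, 0, 11 and 0, against 1.49%, 1.24%, 24.5% and 3.25% of all genes. Array weights gave 19 calls at P13, where they called 38.3% of all genes. At P3, P7 and P60 none of the 18194 genes was called either (0%). At P13 1.15% of all genes were called higher and 2.25% lower in α9−/−, and the median difference of the respiratory chain genes was -0.13 against -0.19 over all genes. The 95% interval of the difference lay within 1 log2 unit of 0 for 68 genes (P3), 72 (P7), 63 (P13) and 56 (P60), so that for those genes a 2-fold difference is outside the interval. The genes with the smallest p were Cox8b, Ndufb5 and Uqcrh at P3 (0.90, 0.22 and 0.21), Ndufa10, Cox7a1 and Uqcrq at P7 (-0.25, 0.17 and -0.16), and Cyc1, Ndufs7 and Cox8a at P60 (0.49, -0.37 and 0.96).

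At P13 the genes nearest to the threshold were Ndufa4l2, Cox7c and Cox6a2. The signals of Ndufa4l2 were 6.03, 5.61 and 6.39 in wild type and 7.22, 7.10 and 6.70 in α9−/−, with no overlap and a difference of 0.99 (SE 0.25, adjusted p = 0.066, limma). Cox7c, a small subunit of complex IV, read 8.14, 7.95 and 7.84 in wild type and 7.20, 7.20 and 7.49 in α9−/−, a difference of -0.68 (SE 0.18, adjusted p = 0.070, limma). Its probe set had a mean of 7.24 over all arrays, against 11.31 to 13.69 for the other complex IV subunits of most tissues. It was higher on all 5 arrays of low 5′ signal than on the rest of their group, by 0.64 on average. Cox6a2 was at 8.42, 7.39 and 8.63 against 7.09, 6.83 and 6.83, again without overlap, with a difference of -1.23 (SE 0.33, adjusted p = 0.071, limma). The assembly factors Ndufaf6 and Ndufaf2 differed by -0.68 and -0.71, and Ndufa3 and Cox8a by 0.97 and 0.74 (adjusted p 0.076 to 0.12, limma). Ndufaf6 and Ndufaf2 were also higher on all 5 arrays of low 5′ signal than on the rest of their group. The mean differences there were 0.61 and 0.80. Counted over arrays, 4 of the 75 genes lay wholly higher in α9−/− and 19 wholly lower, where 7.56% and 25% of all genes did.

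**Figure D5:**
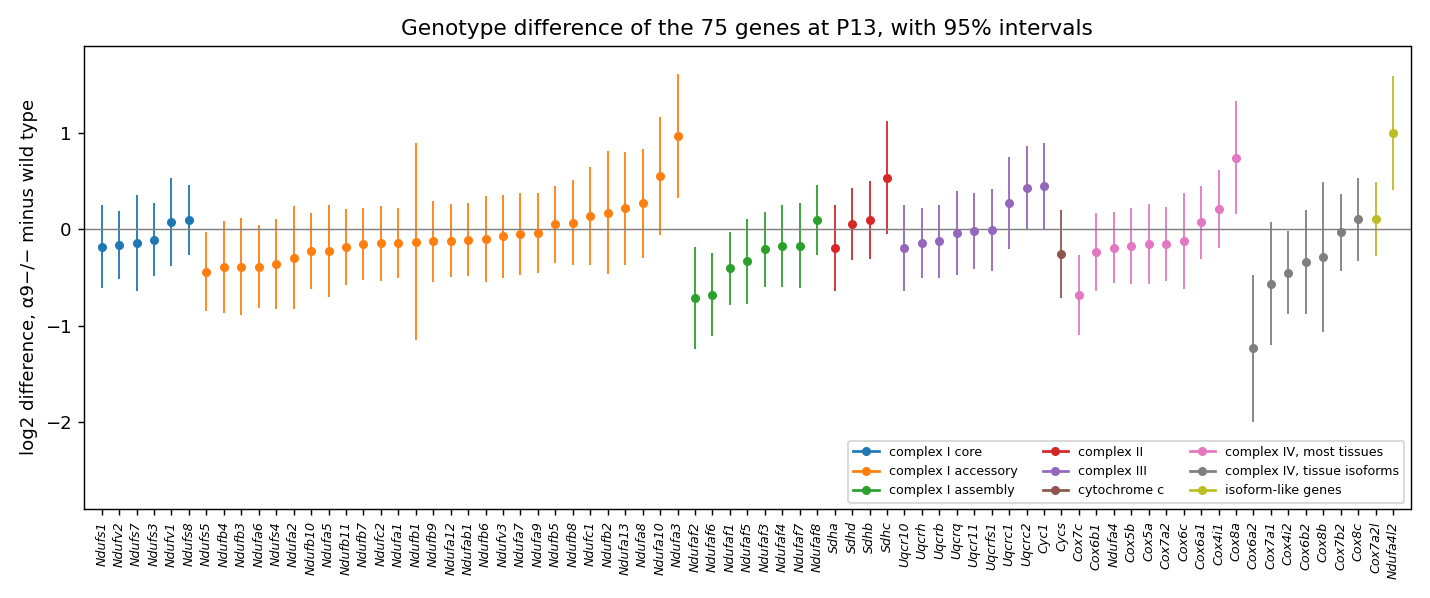
Log2 difference between α9−/− and wild type cochleae at P13 for each of the 75 genes, with 95% intervals from limma, coloured by complex and ordered within it by size. Ndufa4l2, Ndufa3 and Cox8a are the highest and Cox6a2 the lowest, and none passed the adjusted threshold.

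The P13 groups also differed in the control probe sets. For Gapdh, 3′ minus 5′ signal averaged 5.07 ± 2.29 (SD over the 3 wild type arrays) against 0.01 ± 0.28 (SD over the 3 α9−/− arrays), without overlap. A two-sided exact permutation test gave p = 0.1, which is as low as 3 arrays against 3 can reach. At P60 it was 2.49 ± 3.46 and -0.08 ± 0.05 (SD, n = 3, the same exact p = 0.1), and at P3 and P7 p was 0.7. Ndufa4l2, Ndufa3, Cox8a and Uqcrc2 were lower on every one of the 5 arrays of low 5′ signal than on the rest of their group. These were 4 of 75 genes (5.33%), where 8.29% of all genes were so. In the other direction, 26 of 75 genes (34.67%) were higher on every one of the 5 arrays, against 25.99% of all genes. The part of low 5′ signal in the genes that lay wholly lower in α9−/− at P13 was not tested. Against P13 wild type replicate 3 alone, the differences became 0.61 for Ndufa4l2, 0.48 for Ndufa3, 0.25 for Cox8a, -0.54 for Cox7c and -1.72 for Cox6a2. None passed, and the lone array was taken to vary like the others. Cox8a at P60 was at 9.0 on the wild type array of low 5′ signal and at 11.67 and 11.44 on the other two, and without it the genotype difference went from 0.96 to 0.11.

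The muscle markers differed as well at P13, with array means of 9.40, 7.40 and 10.05 in wild type and 7.53, 7.58 and 7.42 in α9−/−. With their mean as a covariate the Cox6a2 difference went from -1.23 to -0.55 (unadjusted p = 0.063, adjusted p = 0.27, limma) and that of Cox7a1 from -0.57 to -0.28. Cox6a2 on the wild type array with muscle markers at 7.40 was 7.39, against 6.83 to 7.09 in α9−/−. That single array, replicate 2, is an array of low 5′ signal. The neutrophil lineage markers were at 12.53 to 13.03 in wild type and 11.93 to 12.18 in α9−/− at P13. Markers of dividing cells were at 11.25 to 11.41 and 10.75 to 10.87. Neither overlapped between genotypes, and their part was not tested.

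None of the 75 genes was called for a difference between genotypes in an age step by limma. Over all genes 0.0055% were called lower in the P7 to P13 step, and 0% otherwise. For the P7 to P13 step, 1 gene was at an unadjusted p under 0.05, Ndufa3 (1.04, SE 0.47, adjusted p = 0.55, limma), and for the other two steps there was none. Of all genes 6.72% were so in the P7 to P13 step, and 1.03% and 3.29% in the others. The intervals of these differences lay within 1 log2 unit of 0 for 57, 48 and 57 genes in the P3 to P7, P7 to P13 and P13 to P60 steps.

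Genes of the neighbouring pathways were read for comparison. ATP synthase, which uses the proton gradient, had medians of 0.19 in wild type and 0.15 in α9−/− from P3 to P60, with 0 of 18 genes called by limma, and the 13 measured genes of the citric acid cycle had medians of 0.10 and 0.11. In that cycle Idh2, the mitochondrial NADP-dependent isocitrate dehydrogenase, fell in both genotypes, by 1.16 (adjusted p = 0.0023, limma) and 1.12 (adjusted p = 0.0033, limma), and Sucla2 rose in wild type by 0.62. Of 17 genes of glycolysis 6 rose in each genotype from P3 to P60 and none fell, with a median of 0.73 in both. Of all genes 11.4% were called higher in wild type and 8.17% in α9−/−. Aldoc, the aldolase of brain, rose by 1.94 and 2.52 and Eno2, the enolase of neurons, by 1.80 and 1.98 in wild type and α9−/−. From P13 to P60 Eno3 and Pgam2, the muscle forms of their enzymes, rose in α9−/− by 2.81 and 2.71, beside the muscle and cerebellum markers given above, whose part was not tested. The differences between these pathways and the respiratory chain were not tested.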

How the data were processed

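Total RNA of pooled cochleae was labelled and hybridised to Affymetrix whole-genome mouse arrays. The deposited values are log2 signals per probe set, made by the authors with AffyPLM (RMA background correction, quantile normalization, Tukey biweight summary). Their array medians were 6.73 to 6.89 at P13 and 6.49 to 6.66 at the other ages, so the deposited values of all 24 arrays were quantile normalized together before the tests. For its clustering maps the study states that raw data of all ages were normalized together. For its tests it does not state which arrays were normalized together. Quantile normalization fixes the overall level of each array, and differences are relative to it. The number of arrays limits the precision.

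Genotypes were compared at each age over 6 arrays, and ages and genotype differences of age steps over 24 arrays with 8 group means, with limma 3.58.1 in R 4.3.3. A gene was called at a Benjamini-Hochberg adjusted p under 0.05 over 45101 probe sets, without a fold threshold. The methods' rule (40% most variable probe sets, log2 difference of at least 1.5), the deposited scale, a filter on low signal, array weights, a replicate block, the mean of all probe sets of a gene, leaving out the arrays of low 5′ signal and leaving out each array were alternatives. A block for poly-A control transcripts and the P3 to P60 comparison were chosen after seeing the data.

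Of the probe sets, 34958 had one gene symbol, 932 several and 9211 were not listed in the annotation. Of the 75 genes, 42 had more than one probe set (153 in all), and 10 probe sets that name a member together with another gene were not used. Named genes were those called (up to 5 in each direction), the complex IV isoforms, the complex II and cytochrome genes, the 3 of smallest p where none was called, and up to 4 called genes of other lists. The members and lists were chosen with earlier results of these data known. The limma step was tested on simulated data. Gene positions and sequences are from RefSeq on GRCm38.p6. Python 3.11.15 with scipy 1.17.1 was used for the exact tests. Without information on litters, p-values measure only the spread between pools.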

Additional observations from a re-analysis of the deposited data

How the results depend on the processing

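For each member difference the report gives, directions were the same under the alternatives run, with these exceptions. The P3 to P60 difference in wild type turned from -0.13 to 0.094 for Cyc1 and from -0.15 to 0.16 for Sdhb with array weights, to 0.17 and 0.29 without the arrays of low 5′ signal, and to 0.17 and 0.18 without P60 wild type replicate 1. Leaving out single arrays gave -0.30 to 0.17 for Cyc1 and -0.35 to 0.18 for Sdhb. On the deposited values the P13 to P60 differences turned to -0.20 for Ndufa12, -0.058 for Ndufb6, -0.075 for Ndufs5 and -0.21 for Cox6a1 in wild type, and to -0.065 for Ndufa12, -0.16 for Ndufa13, -0.19 for Ndufaf8 and -0.057 for Cox6a1 in α9−/−. The genotype difference of Cox8b at P13 turned from -0.29 to 0.0077 with the skeletal muscle markers as a covariate.

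The number of called genes moved more, and so did the share of all genes called under the same setting, given in brackets. Between genotypes at P13 it went from 0 (3.4%) to 19 with array weights (38.3%), to 1 with the mean of all probe sets (4.83%) and to 1 with the poly-A control block (8.04%), which was chosen after seeing the data. For P7 to P13 in wild type it went from 4 (17.2%) to 13 on the deposited values (27.5%) and 2 under the methods' rule (13.8%). The low signal filter gave 8 (26.2%), array weights 26 (43.5%) and the mean of all probe sets 9 (15.9%). Leaving out the arrays of low 5′ signal left P13 wild type replicate 3 alone, so no count is given. In α9−/− that step went from 0 (4.47%) to 1 on the deposited values (7.95%) and 8 with array weights (22.4%). For P13 to P60 in wild type it went from 0 (15.2%) to 7 on the deposited values (30.8%), 25 with array weights (44.8%) and 2 with the mean of all probe sets (14.2%). In α9−/− it went from 2 (10.3%) to 1 under the methods' rule (10.5%), 4 with the low signal filter (15.3%), 15 with array weights (28.4%), 5 without the arrays of low 5′ signal (15.1%) and 1 with the poly-A control block (9.85%). For P3 to P7 in α9−/− array weights gave 1 (4.72%). For P3 to P60 in wild type the count of 8 (19.4%) became 5 with the variance filter (39.6%), 3 under the methods' rule (18.4%) and 26 with array weights (34.9%). In α9−/− the count of 5 (19.3%) became 1 on the deposited values (18.5%), 3 with the variance filter (36.8%), 1 under the methods' rule (15.5%), 8 with the low signal filter (28%), 18 with array weights (32.3%) and 12 without the arrays of low 5′ signal (20.3%). The genotype differences of the P7 to P13 and P13 to P60 steps gave 3 (8.91%) and 6 (16.7%) with array weights. The variance filter and the methods' rule tested 10 of the 75 genes. The cause of these moves was not tested.

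Leaving out single arrays gave 0 to 6 called genes between genotypes at P13. There were 6 without wild type replicate 3, where 11.1% of all genes were called, and 1 without wild type replicate 2. The range was 1 to 3 for P7 to P13 in wild type and 1 to 3 for P13 to P60 in α9−/−. For P13 to P60 in wild type it was 0 to 8 (8 without P60 replicate 1, an array of low 5′ signal, with 23.7% of all genes called). For P3 to P60 in wild type it was 2 to 10. There were 2 without P3 replicate 3 (14.2% of all genes) and 10 without P3 replicate 1 (18.9%). In α9−/− the range was 0 to 4, with 4 without P3 replicate 2 (14.5%). All other comparisons stayed at 0. Where no share of all genes stands beside a count in this paragraph, the count alone does not set the respiratory chain genes apart.

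Replicate numbers occur in both genotypes, but same-numbered arrays did not always deviate together. Their correlations were -0.57, -0.70 and 0.53 at P3, and 0.15, 0.62 and -0.09 at P7. At P13 they were 0.33, 0.16 and 0.04 and at P60 0.17, -0.10 and 0.50, and at no age were all 3 above 0.1. Poly-A control transcripts had a mean signal above 8 log2 at P7 only on replicate 2 of both genotypes. At P13 this held only for replicate 1 of both, and at P60 for every array. At P3 it held for wild type replicates 1 and 2 and α9−/− replicates 2 and 3. What this reflects is not known here. With the replicate block the counts were 5 for P7 to P13 in wild type (19.6% of all genes) and 2 for P13 to P60 in α9−/− (11.3%). For P3 to P60 they were 8 and 5 (20.5% in each genotype). In the other comparisons they were 0, where the share of all genes reached 16.5% for P13 to P60 in wild type.

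The number of arrays limits the precision, and intervals that reach beyond 1 log2 unit do not show that a gene was alike in both genotypes. Cross-hybridisation between isoform probe sets was not tested.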

Other observations

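Of 19 regulators of mitochondrial gene expression, 2 rose and 1 fell from P3 to P60 in wild type cochleae, and 4 rose and 1 fell in α9−/− (limma, adjusted p under 0.05). Of all genes 11.4% were called higher and 8.07% lower in wild type, and 8.17% and 11.1% in α9−/−. Ppargc1a, the coactivator PGC-1α, rose in both, by 1.81 (adjusted p = 0.00041, limma) and 1.68 (adjusted p = 0.00088, limma). Esrrg, an oestrogen-related receptor, rose by 1.47 and 1.23, and Esrra rose in α9−/− by 1.11. Gabpb1, a subunit of the ETS factor GABP, fell in α9−/− by 0.64, and Pprc1, a relative of Ppargc1a, fell in wild type by 0.55. The part of muscle, fat and cerebellum, whose markers are given above, was not tested.

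The mitochondrial ribosome, which makes the mitochondrially encoded subunits, had medians of -0.26 and -0.31 from P3 to P60 over 76 genes. In wild type 2 rose and 2 fell, and in α9−/− 2 rose and 7 fell, against the shares of all genes given in the paragraph before. Mrpl44 rose by 1.53 and 1.11 and Mrps6 by 1.22 and 0.86 in the 2 genotypes, and Mrpl11 fell by 0.80 and 0.59. Of 24 assembly genes outside the Nduf family, Cox17, the copper chaperone of complex IV, rose by 1.26 (adjusted p = 0.0020, limma) and 1.14 (adjusted p = 0.0046, limma). None of these genes was called between genotypes at P13 except Mrpl34, which was higher in α9−/− by 1.08 (adjusted p = 0.044, limma).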
